A study of Mus musculus with 36 samples.

Results

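Rsad2 and Cmpk2 are neighbouring antiviral genes on mouse chromosome 12. The locus described here comprises the 26 ATAC-seq peaks, of 119751 in the deposited list, that overlap either gene or the 50 kb to either side. ATAC-seq measures open chromatin through the insertion of sequencing adapters by a transposase. The locus was chosen by its measured accessibility: it departed strongly from additivity when Sendai virus and cGAMP were given together, a value that came from the control, Sendai virus, cGAMP and Sendai virus plus cGAMP libraries. Every difference that holds one of those libraries is therefore described here without a test, and tests are given for contrasts among the other groups. Libraries with depleted zymosan had entered a triplet interaction that was known when the locus was proposed. Tests that hold such libraries are therefore not independent of the choice of the locus.

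The cells were dendritic cells grown with GM-CSF at 15 ng/mL from the bone marrow of female C57BL/6J mice aged 6 to 8 weeks. They were stimulated for 6 h, and the 36 libraries form 18 groups of 2. Ctrl received no ligand. The single ligands were LPS (L), PAM (P), HMW (H), zymosan labelled as depleted (Z), 3',3'-cGAMP (cG) and SeV, which is Sendai virus (S). The pairs were PL, PH, LH, PS, PcG, ScG, ZS and ZcG, and the triplets were PLH, PScG and ZScG. The labels do not say that the 2 libraries of a group came from separate cultures or animals, so p-values measure only the spread between these libraries, which may be technical.

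Rsad2 encodes viperin, a radical SAM enzyme that turns CTP into a chain-terminating nucleotide and so blocks the replication of many viruses. Cmpk2 encodes a mitochondrial nucleoside monophosphate kinase. Both are interferon-stimulated genes: RNA sensors that detect Sendai virus and STING, the receptor of cGAMP, act through the kinase TBK1 and the factor IRF3 on interferon beta, and interferon then acts on such genes through its own receptor. LPS reaches the same interferon pathway through its receptor TLR4. Dectin-1 is the main receptor of the yeast cell wall preparation zymosan.

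The genes are read away from each other, and their start sites lie 12763 bp apart (GRCm38, the assembly also called mm10). Rsad2 spans chr12:26442743-26456452 on the minus strand and Cmpk2 spans chr12:26469117-26479837 on the plus strand. The promoters, from 250 bases before to 50 after each start, are shown because 1 peak covers each of them. The start used for Rsad2 was 26456452, the end of its span. For Cmpk2 it was 26469215, which lies inside the span given, and the distance between starts and the motif positions refer to these. The sequences are RefSeq's for GRCm38.p6, 5′ to 3′ along the gene, with the core of the interferon-stimulated response element in capitals. Those are the letters GAAA, any 2 bases and GAAA, searched on both strands, to which STAT and IRF complexes are known to bind.
Rsad2, chr12:26456403-26456702, minus strand: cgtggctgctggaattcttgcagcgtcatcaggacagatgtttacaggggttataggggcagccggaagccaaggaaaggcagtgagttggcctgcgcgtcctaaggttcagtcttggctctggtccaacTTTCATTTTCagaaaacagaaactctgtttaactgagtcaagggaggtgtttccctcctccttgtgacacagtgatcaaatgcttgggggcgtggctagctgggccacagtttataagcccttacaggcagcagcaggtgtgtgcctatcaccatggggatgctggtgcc
Cmpk2, chr12:26468965-26469264, plus strand: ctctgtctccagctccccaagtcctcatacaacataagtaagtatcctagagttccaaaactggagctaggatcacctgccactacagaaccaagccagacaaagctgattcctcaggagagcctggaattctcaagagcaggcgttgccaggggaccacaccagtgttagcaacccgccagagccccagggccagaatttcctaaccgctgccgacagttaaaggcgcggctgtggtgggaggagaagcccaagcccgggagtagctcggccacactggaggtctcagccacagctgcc
The Rsad2 promoter held 1 such core, on the reverse strand 120 bases before the start, and the Cmpk2 promoter held none. These letters occurred in 3.45% of 32544 promoters of the same length, and in 12 of 19 promoters of an antiviral gene list described further on. An NF-kappaB core (GGG, any 5 bases and CC, on either strand) was found in both promoters, at 75 bases before the start of Rsad2 and 8 before that of Cmpk2, but 50.95% of all promoters hold one. The Rsad2 promoter also held an AP-1 site (TGANTCA, 7.79% of promoters) 87 bases before the start and a TATA box (TATAAA on either strand, 13.57% of promoters), read in the reverse direction, 10 bases before it. The interferon-gamma activated site (TTC, any 3 bases and GAA, 8.33% of promoters) was in neither. A match of letters does not show that a factor was bound.

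Of the 26 peaks, 5 lay over Rnf144a, the ubiquitin ligase gene on the far side of Rsad2, and 1 of these covered its start. Rsad2 had 3 peaks over its body and 1 over its start (chr12:26455652-26456964). Between the genes lay 4 peaks, 1 peak covered the Cmpk2 start (chr12:26468934-26470372), 7 overlapped the rest of Cmpk2 and 5 lay past its end. The last of the 7, at chr12:26479545-26481889, is counted with the Cmpk2 body and called its end peak. It overlaps the gene only up to the gene's 3′ end at 26479837 and lies mostly past it. The longest was a peak of 14.7 kb over the body of Rsad2, at chr12:26438731-26453446. It began 3006 bp inside the gene from its start and ran 4012 bp past its 3′ end. It was the 4th longest of 119524 peaks on the numbered chromosomes and X, and the median width of all 119751 peaks was 450 bp. This long peak held 19.3% to 49.1% of the locus's counts in a library (median 41.3%). At the edge of the 50 kb window on the Rsad2 side, the last peak inside lay 43.7 kb from the gene with 48 to 241 counts per library, and the first outside lay 51.2 kb from it with 7 to 162. On the other side, the last peak inside lay 8.4 kb past Cmpk2 with 2 to 22 counts, and the next peak of the list lay 2109.5 kb past the gene.

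The libraries held 19097027 to 39977088 counts, and 8181254 to 21985891 outside the mitochondrial genome, to which all CPM, that is counts scaled to library size, refer. The locus held 1214 to 7971 counts per library, and all 26 peaks passed the filter on low counts. The mitochondrial share of counts had group means of 58.3% to 63.0% in Ctrl, Z, ZcG, ScG and ZScG and of 44.4% to 54.5% in the other 13 groups. Of the dendritic and myeloid marker genes that could be placed, 5 of 6 had a peak at the start, whereas Zbtb46 had none. Itgax, which encodes CD11c, held 11.1 to 27.4 CPM. Ptprc, on the same list but not specific to these cells among leukocytes, held 12.2 to 19.7 CPM. H2-Aa (1.98 to 8.55 CPM), Flt3 (1.79 to 5.98 CPM) and Itgam (1.18 to 4.43 CPM) were lower. Of 15 marker genes of other cell types, 2 had a peak: Klrb1c, an NK cell gene, at 7.47 to 18.5 CPM and S100a8, a neutrophil gene, at 6.37 to 21.7 CPM. No T cell, B cell or erythroid gene of the list had one. The part of other cells in the results below was not tested, and in such bulk samples more responding cells and more opening per cell cannot be told apart.

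**Figure D1:**
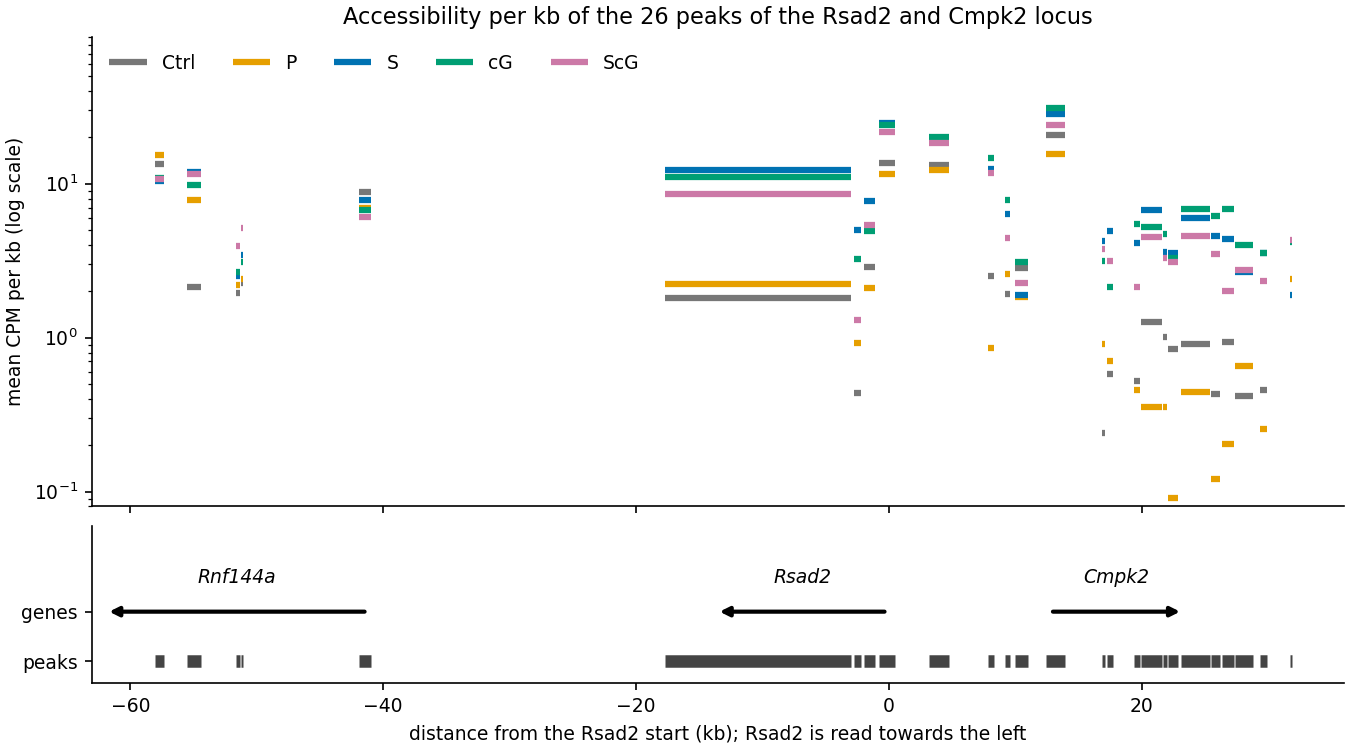
Mean CPM per kb of peak (log axis, n = 2 libraries) of the 26 peaks in Ctrl, P, S, cG and ScG, drawn at their distance in kb from the Rsad2 start; arrows are genes in their direction of reading, and Rnf144a runs off the left edge. The bar over the Rsad2 body spans 14.7 kb and lies lowest in Ctrl and P, and the peaks over and past Cmpk2 are low in both of these groups.

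In unstimulated cells both starts were open, and the bodies of both genes were less open per kb. The Rsad2 start peak held 19.2 and 16.3 CPM in the Ctrl libraries and the Cmpk2 start peak 31.8 and 27.7 CPM. The long Rsad2 body peak held 25.6 and 28 CPM, spread over 14.7 kb. Per kb, the 3 Rsad2 body peaks together had 11.3% and 16.1% of the level of the start peak in the Ctrl libraries. The same measure was 47.4% and 48.5% with S, 38.5% and 49.4% with cG, and 38.5% and 37.4% with ScG. It is a ratio within each library, so scaling between libraries does not enter it. In Cmpk2, the 7 body peaks per kb had 4.11% and 4.89% of the level of its start peak in Ctrl, 16.7% and 22.6% with S, 16.4% and 18% with cG, and 15.9% and 17.1% with ScG. In both genes the Ctrl values lay below those of S, cG and ScG, with no overlap.

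The long Rsad2 body peak was highest with the virus or with cGAMP alone. It held 183 and 179 CPM in S and 146 and 180 CPM in cG, but 126 and 128 CPM in ScG, below every library of either single ligand. The fitted log2 difference from Ctrl was 2.75 (SE 0.0998) for S, 2.60 (SE 0.0999) for cG and 2.24 (SE 0.101) for ScG. The departure from additivity, ScG - S - cG + Ctrl, is the value that picked the locus. It was -3.11 on the log2 scale (SE 0.133) at this peak, -1.01 (SE 0.184) at the Rsad2 start, -0.80 (SE 0.166) at the Cmpk2 start and -3.30 (SE 0.334) at the peak over the end of Cmpk2 (chr12:26479545-26481889). On the CPM scale, the sum of the separate gains predicted 317 CPM at the long Rsad2 body peak with ScG, and the mean was 127 CPM, 0.401 of the sum. Ctrl and ScG belong to the groups of high mitochondrial share and S and cG to the others. With scaling by total counts, which moved the median departure of all peaks to -0.65, these 4 values were -3.74, -1.64, -1.44 and -3.92.

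The other ligands and combinations also raised the long Rsad2 body peak above Ctrl to different degrees. With L it held 121 and 129 CPM, with LH 131 and 131 CPM and with H 79.8 and 93.2 CPM. With Z it held 50.3 and 56.9 CPM, and with P 31.4 and 34.7 CPM. The order of group means was S, cG, PS, PScG, ZScG, LH, ZcG, ScG, PcG, L, ZS, H, PL, PLH, PH, Z, P, Ctrl. It mixes groups of high and low mitochondrial share and depends on the scaling. With scaling by total counts, the log2 difference from Ctrl was 2.64 for L and 2.64 for PcG, above 2.31 for ScG. The libraries of neighbours in this order overlapped except between L and ZS, ZS and H, PLH and PH, PH and Z, Z and P, and P and Ctrl. The lower 6 of the 18 groups include every group that received P without S or cG, but also Ctrl and Z.

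**Figure D2:**
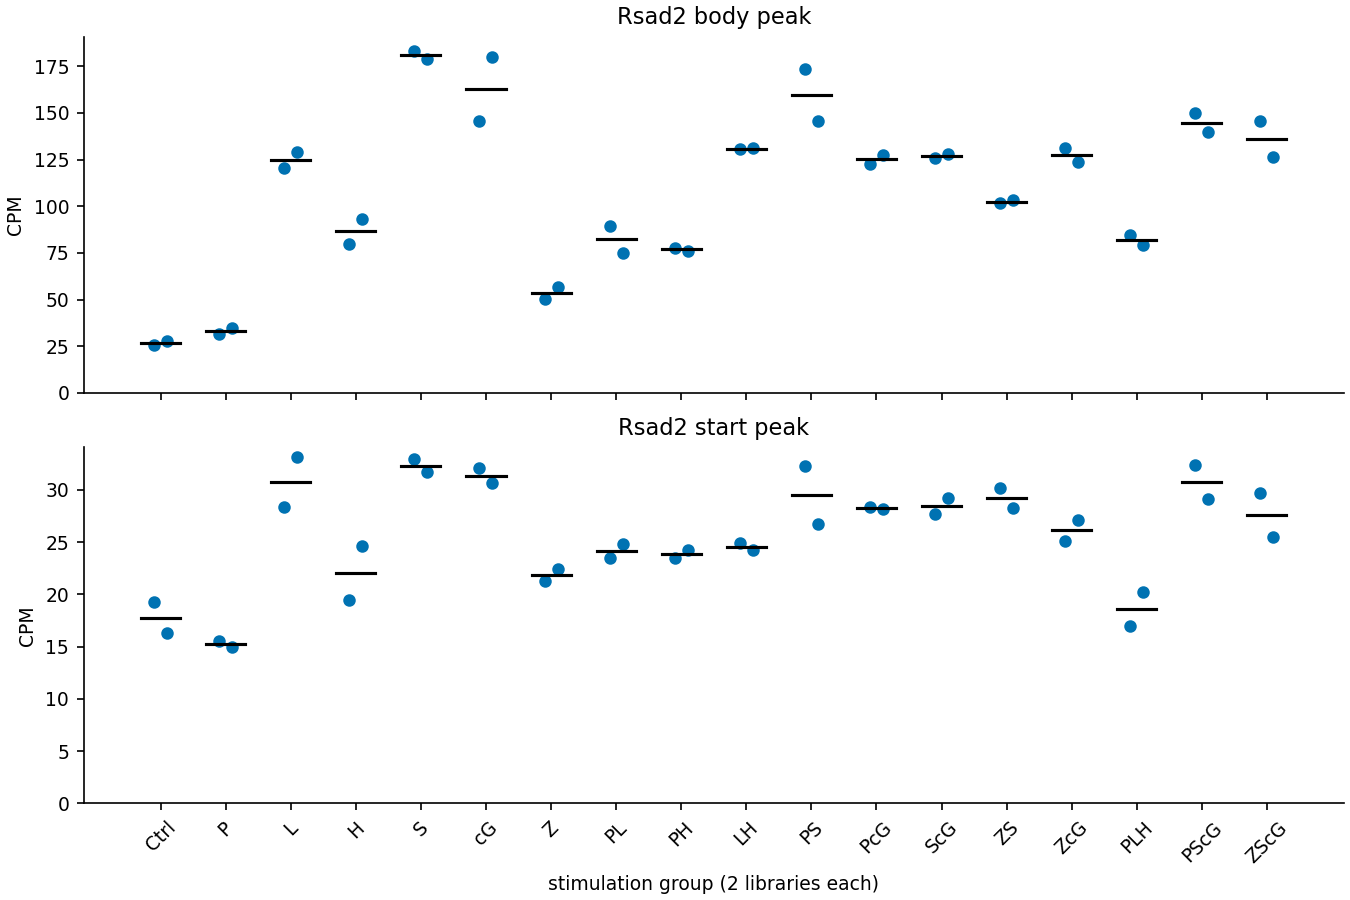
CPM of the long Rsad2 body peak (top) and the Rsad2 start peak (bottom) in each library (points) with the group mean (line) for the 18 groups. The body peak runs from 25.6 CPM in Ctrl to 183 CPM in S, and the start peak from 15 CPM in P to 33.2 CPM in L.

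Adding S, cG or both to P tested the same ligands in libraries that did not choose the locus. All of these additions opened the bodies of both genes and, less, their starts. The long Rsad2 body peak held 31.4 and 34.7 CPM with P, 173 and 146 CPM with PS, 123 and 127 CPM with PcG, and 150 and 140 CPM with PScG. All 6 libraries with S or cG lay above both P libraries. The peak rose 4.82-fold in PS over P (log2 2.27, SE 0.0947, adjusted p = 1.86e-56, edgeR quasi-likelihood test with Benjamini-Hochberg adjustment, as for all adjusted p-values here), 3.78-fold in PcG (log2 1.92, SE 0.0946, edgeR adjusted p = 4.62e-46) and 4.37-fold in PScG (log2 2.13, SE 0.0953, edgeR adjusted p = 5.68e-52).

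The Rsad2 start peak held 15.6 and 15 CPM with P, 32.2 and 26.7 CPM with PS, 28.3 and 28.2 CPM with PcG, and 32.4 and 29.1 CPM with PScG. It rose by 0.94, 0.89 and 1.01 on the log2 scale, with SE of 0.129 to 0.132 and edgeR adjusted p of 9.94e-10, 1.86e-08 and 1.27e-10. The Cmpk2 start peak held 23.5 and 21.5 CPM with P, 34.5 and 34 CPM with PS, 33 and 33.8 CPM with PcG, and 34.6 and 38.3 CPM with PScG. Its log2 rises were 0.61, 0.57 and 0.70 (edgeR adjusted p = 2.12e-05, 0.000115 and 9.93e-07). At both starts the P libraries lay below all libraries of the combinations, and the fold was smaller than over the Rsad2 body.

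The peak over the end of Cmpk2, most of which lies past the gene, held 1.22 and 0.867 CPM with P and 10.2 and 10.3 CPM with PS. With PcG this end peak held 7.7 and 7.65 CPM, and with PScG 9.61 and 9.04 CPM. It rose 9.76-fold in PS (log2 3.29, SE 0.282), 7.33-fold in PcG (log2 2.87, SE 0.292) and 8.88-fold in PScG (log2 3.15, SE 0.292), with edgeR adjusted p of 4.72e-21, 8.89e-16 and 1.21e-18. The body peak at chr12:26476434-26478083 held 0.305 and 0.867 CPM with P, 6.9 and 6.42 CPM with PS, 5.51 and 5.99 CPM with PcG, and 7.09 and 5.62 CPM with PScG. The P libraries held only 4 and 12 counts there, and 2 and 0 counts in the neighbouring body peak at chr12:26478540-26479374, where PScG had 46 and 47. Both peaks were called higher with PS, PcG and PScG.

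Over the whole locus, 16 of 26 peaks rose in PS, against 9.36% of all tested peaks, and none fell. With PcG 17 rose (7.39% of all) and with PScG 18 rose (12.3% of all), again with no fall. In the P libraries, however, the 7 peaks over Cmpk2 together held only 31 and 37 counts and the 5 past it 22 and 27. Several of these passed the filter only through groups with more counts and could hardly be called lower than in P. The absence of falls there is therefore not a result, and part of the rises may come from this selection. The median log2 difference of the 26 peaks was 1.60, 1.39 and 1.72, against 0.014, 0.010 and 0.021 over all tested peaks. By place, PScG raised 1 of 5 peaks over Rnf144a, all 3 over the Rsad2 body, the Rsad2 start, 3 of 4 between the genes, the Cmpk2 start, 5 of 7 over Cmpk2 and 4 of 5 past it. The peak at the Rnf144a start was called in none of the 28 tested contrasts.

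When the other of S and cG was added to a pair that already held P, no peak of the locus was called. PScG against PS differed by -0.14 at the long Rsad2 body peak (95% interval -0.31 to 0.03, edgeR adjusted p = 0.631), and PScG against PcG by 0.21 (0.04 to 0.38, edgeR adjusted p = 0.326). At the Rsad2 start the differences were 0.07 (-0.17 to 0.30) and 0.12 (-0.12 to 0.36). These intervals come from the fitted value and its standard error and are not adjusted over peaks. The count was 0 in both contrasts by edgeR (0.602% and 0.412% of all tested peaks were called) and by DESeq2, and 2 and 3 of the 26 had an unadjusted p under 0.05. With only the groups of the contrast in the fit, 1 peak was called in each.

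On P, S and cG together gave less than the sum of their separate effects. The departure from additivity, PScG - PS - PcG + P, was -2.06 at the long Rsad2 body peak (SE 0.128, edgeR adjusted p = 1.23e-33) and -0.82 at the Rsad2 start (SE 0.178, edgeR adjusted p = 0.000846). It was -3.01 at the peak over the end of Cmpk2 (SE 0.361, edgeR adjusted p = 4.21e-11). At the Cmpk2 start it was -0.48 and not called (SE 0.164, edgeR adjusted p = 0.0746), although with scaling by total counts it was -0.62 with an edgeR adjusted p of 0.0185. In all, 13 of 26 peaks had a called departure below 0 and none above (2.66% and 1.38% of all tested peaks), with a median of -1.17 against -0.016 over all. Of the 13, 5 lay over the Cmpk2 body, 3 past Cmpk2, 2 over the Rsad2 body, 1 at the Rsad2 start, 1 between the genes and 1 over Rnf144a. Over the 7 peaks of the Cmpk2 body the P libraries held only 31 and 37 counts, and over the 5 past it 22 and 27. Several of these peaks passed the filter only through groups with more counts, and a low level in P favours a departure below 0. Part of the calls there may come from this selection, and the absence of departures above 0 there is not a result. The 4 groups of this contrast all had mitochondrial shares of 45.1% to 49.5%. On the CPM scale the long Rsad2 body peak reached 145 CPM in PScG, where adding the separate gains of S and cG predicted 252 CPM, a ratio of 0.575. Total-count scaling moved the median departure of all peaks to -0.15 and left the calls at the long Rsad2 body peak, the Rsad2 start and the Cmpk2 end in place.

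**Figure D3:**
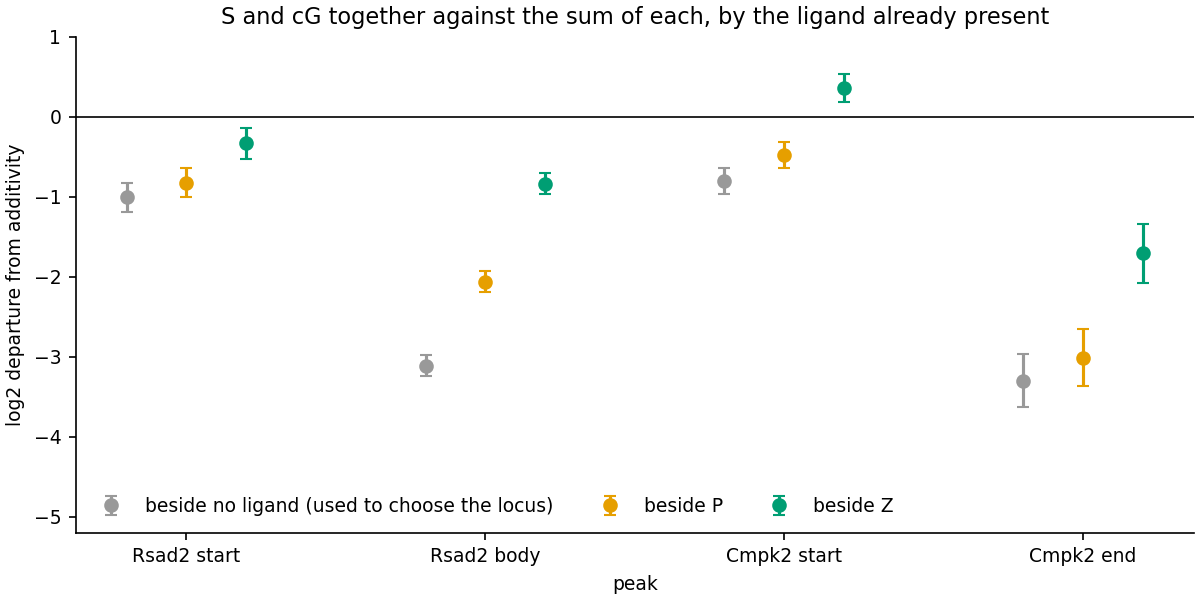
Departure from additivity of S and cG on the log2 scale (points, fitted values; bars, 1 SE) at 4 peaks, beside no ligand (the contrast that picked the locus, not tested), beside P and beside Z. On P the values are -0.82 at the Rsad2 start, -2.06 over its body, -0.48 at the Cmpk2 start and -3.01 at its end.

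Depleted zymosan gave a higher starting level of the long Rsad2 body peak than P, and smaller rises from it. That peak held 50.3 and 56.9 CPM with Z, 101 and 104 CPM with ZS, 131 and 124 CPM with ZcG, and 145 and 126 CPM with ZScG. Its rises over Z were 0.93, 1.25 and 1.34 on the log2 scale (SE 0.0952, 0.0952 and 0.0953, edgeR adjusted p = 3.03e-15, 2.17e-24 and 9.86e-28). Like all tests with Z, alone or in combination, these are not independent of the choice of the locus. The Z libraries lay below all libraries of the combinations, and ZS lay below ZcG and ZScG. Mitochondrial shares were 61.7% in Z, 63.0% in ZcG and 58.3% in ZScG, but 54.5% ± 5.04 (SD, n = 2) in ZS, and their part in the differences of ZS was not tested.

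On Z the fitted changes were smaller at the starts of the genes than over their bodies. The Rsad2 start peak held 21.3 and 22.5 CPM with Z, 30.2 and 28.3 CPM with ZS, 25.1 and 27.2 CPM with ZcG, and 29.7 and 25.5 CPM with ZScG. It was called higher in ZS (log2 0.42, SE 0.136, edgeR adjusted p = 0.0228), a call lost on leaving out any library of Z or ZS and without the dispersion trend (edgeR adjusted p = 0.101), and not in ZcG (0.26, edgeR adjusted p = 0.267) or ZScG (0.34, edgeR adjusted p = 0.0677). The rise in ZScG was called with DESeq2 size factors (edgeR adjusted p = 0.0429), with total-count scaling (0.0199) and with the mitochondrial peak kept (0.0444). The Cmpk2 start peak held 37.5 and 37.8 CPM with Z, 30.6 and 34.4 CPM with ZS, 31.6 and 28 CPM with ZcG, and 36.4 and 29.4 CPM with ZScG. All 6 libraries of the combinations lay below both Z libraries there, yet the log2 differences of -0.21, -0.34 and -0.19 were not called, and with total-count scaling that of ZS turned to 0.018. The peak over the end of Cmpk2 rose from 3.54 and 1.78 CPM with Z to 7.42 and 7 CPM with ZS, 14.2 and 8.68 CPM with ZcG and 10.3 and 9.1 CPM with ZScG (log2 1.47, 2.14 and 1.91; edgeR adjusted p = 4.03e-05, 4.19e-10 and 1.84e-08).

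In the locus as a whole, ZS raised 10 of 26 peaks (6.63% of all tested peaks rose), ZcG raised 6 (4.12%) and ZScG raised 9 (9.09%), and no peak of the locus fell. Peaks with few counts in Z could hardly be called lower: the 7 over Cmpk2 together held 43 and 55 counts in the Z libraries. Part of the rises there may come from the selection of such peaks by the filter. The ZS count was 6 without the second Z library and 5 without the second ZS library. Past Cmpk2, where PScG raised 4 of 5 peaks over P, none of the 5 was called in ZS, ZcG or ZScG against Z. The summed level of these 5 peaks was 6.04 and 7.76 CPM with Z but 1.68 and 1.95 CPM with P. ZScG against ZS differed by 0.41 at the long Rsad2 body peak (edgeR adjusted p = 0.028), which was the only peak of the locus called there (0.0586% of all tested peaks were). That call was lost with total-count scaling, without the dispersion trend, with only the groups of the contrast in the fit, and without either ZS library or the first ZScG library. ZScG against ZcG differed there by 0.09 (95% interval -0.08 to 0.27) and called 1 of 26 peaks (2.79% of all), the small peak at chr12:26464299-26464776 between the genes, named after its value was seen, by 1.22 (edgeR adjusted p = 0.0334), a call lost on leaving out any library of the 2 groups.

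The departure from additivity on Z, ZScG - ZS - ZcG + Z, was -0.84 at the long Rsad2 body peak (SE 0.131, edgeR adjusted p = 3.19e-06). These libraries had entered a triplet interaction that was known when the locus was proposed, so the p-values of the departure on Z are not independent of that choice. At the end of Cmpk2 it was -1.71 (SE 0.367, edgeR adjusted p = 0.00215), with no call without the second Z library (edgeR adjusted p = 0.119) or the first ZcG library (0.0733). Neither start was called, at -0.33 for Rsad2 (edgeR adjusted p = 0.456) and 0.36 for Cmpk2 (edgeR adjusted p = 0.350). In all 4 of 26 peaks had a called departure, each below 0 (0.946% of all tested peaks), a count that fell without the second Z or the first ZcG library. Of these, 2 were among the 7 peaks over Cmpk2, which together held only 43 and 55 counts in the Z libraries. A low level in Z favours a departure below 0, so part of the calls there may come from the selection of such peaks by the filter.

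The departure at the long Rsad2 body peak was larger on P than on Z. The difference holds the same Z libraries, so its p-values too are not independent of the choice of the locus. The difference between the departures was -1.22 (SE 0.183, edgeR adjusted p = 1.33e-05), and this was the only one of the 26 peaks called in that test (0.0159% of all tested peaks). Without the dispersion trend the values kept their size, -0.84 on Z and -1.22 for the difference, but were not called (edgeR adjusted p = 0.0765 and 0.496). The differences at the Rsad2 start (-0.49, edgeR adjusted p = 0.710), the Cmpk2 start (-0.84, edgeR adjusted p = 0.289) and the Cmpk2 end (-1.30, edgeR adjusted p = 0.562) were not called. On the CPM scale, the long Rsad2 body peak reached 0.770 of the sum predicted on Z and 0.575 of that on P. The base levels were 53.6 CPM in Z and 33.1 CPM in P, and a log2 departure depends on the base. At the Cmpk2 end the ratios were closer, 0.605 on Z and 0.553 on P.

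Between groups that differ only in holding P or Z, the long Rsad2 body peak was called higher with P beside S, and was not called beside cG or beside both. There PS lay above ZS by 0.64 (SE 0.0883, edgeR adjusted p = 4.76e-09), whereas PcG and ZcG differed by -0.03 (edgeR adjusted p = 0.899) and PScG and ZScG by 0.09 (edgeR adjusted p = 0.677). These contrasts called 3, 0 and 1 of 26 peaks (7.16%, 9.88% and 4.9% of all tested peaks). They hold libraries with Z and so are not independent of the choice of the locus. The counts were 1 without the second PS library or either ZS library, 3 without the second ZcG library, and 0 without the second PScG or the second ZScG library. In PcG against ZcG DESeq2 also called 0, and 5 peaks had an unadjusted p under 0.05. The groups differ in mitochondrial share, and total-count scaling, which moved the medians of all peaks to 0.21, 0.48 and 0.30, gave 5, 8 and 7 called peaks and log2 differences at this peak of 0.45 for PcG against ZcG and 0.38 for PScG against ZScG.

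**Figure D4:**
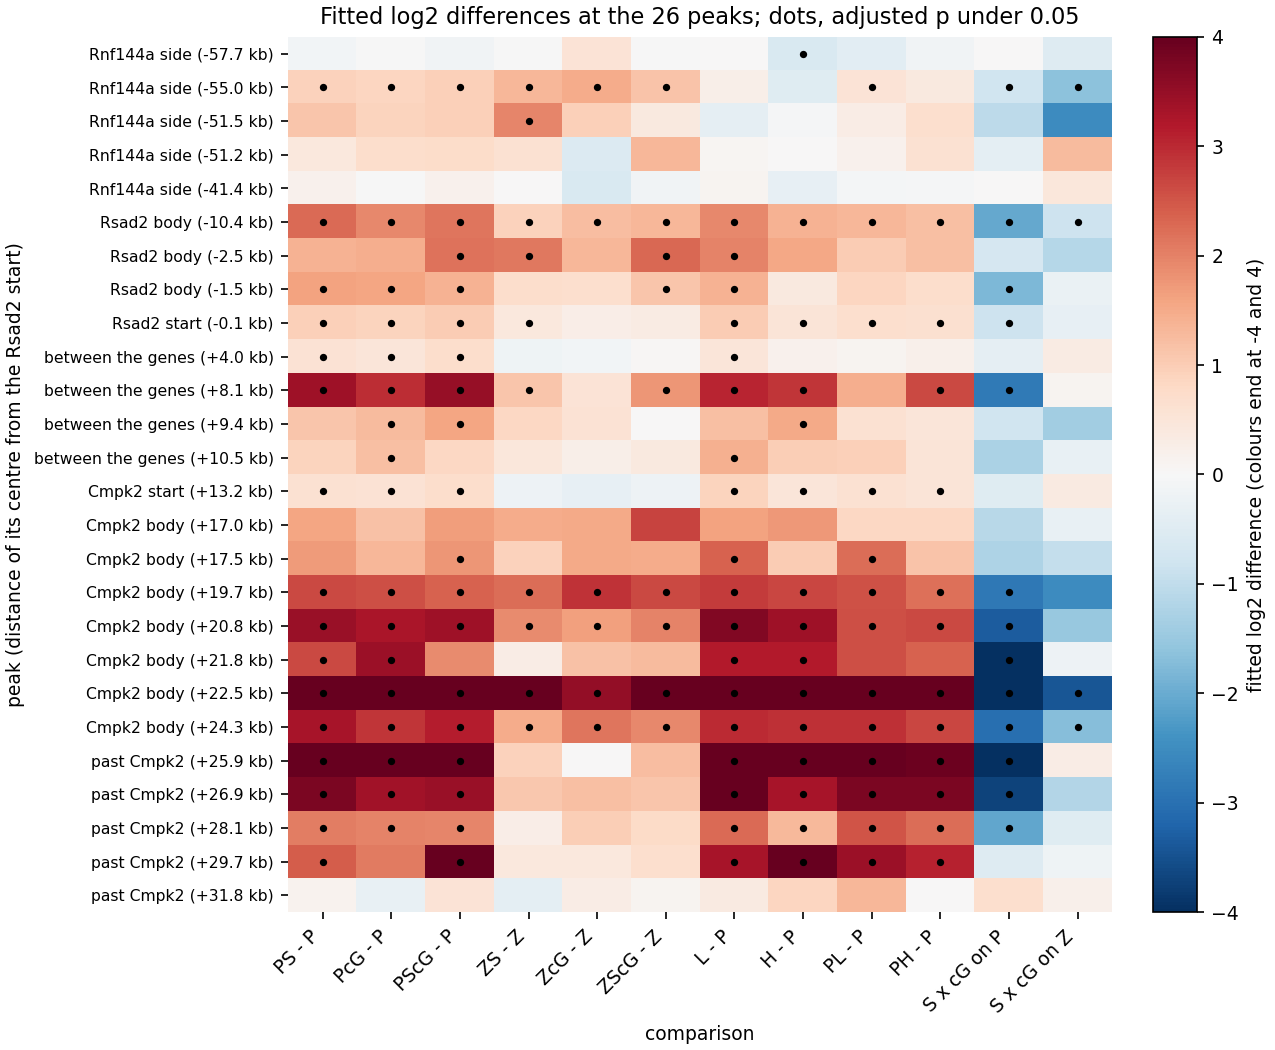
Fitted log2 differences (colour) at the 26 peaks, in order along the chromosome, in 10 contrasts and the departures from additivity of S and cG on P and on Z; dots mark edgeR adjusted p under 0.05. The columns against P are mostly red from the Rsad2 body to past Cmpk2, the Rnf144a rows are mostly pale, and the column for P departures is blue with 13 dots. Peaks with few counts in P or Z reach the ends of the colour scale.

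Among P, L and H, most peaks of the locus were more open with L or H than with P. At the long Rsad2 body peak L lay 3.78-fold above P (log2 1.92, SE 0.0947, edgeR adjusted p = 6.22e-46) and H 2.61-fold (log2 1.38, SE 0.0954, edgeR adjusted p = 3.78e-29). The Rsad2 start peak held 28.3 and 33.2 CPM with L and 19.4 and 24.6 CPM with H, against 15.6 and 15 CPM with P (log2 1.01 and 0.52 over P, edgeR adjusted p = 1.48e-10 and 0.00303). The Cmpk2 start peak held 42.5 and 41.6 CPM with L and 29.7 and 33.2 CPM with H (log2 0.90 and 0.48 over P, edgeR adjusted p = 3.16e-10 and 0.00229). At both starts the call for H was lost without the second P library or the second H library, and at the Cmpk2 start also without the dispersion trend (edgeR adjusted p = 0.0591). The Cmpk2 end peak held 9.26 and 7.28 CPM with L and 8.45 and 7.5 CPM with H (log2 2.97 and 2.93 over P, edgeR adjusted p = 1.23e-16 and 4.05e-16).

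L raised 18 of 26 peaks over P (5.19% of all tested peaks rose). H raised 14 (4.96%) and lowered 1 (7.18%), the peak over Rnf144a at chr12:26398405-26399085. Of the 7 peaks over Cmpk2, L raised 6 and H 5, and each raised 4 of the 5 past it. The P libraries held only 31 and 37 counts over the 7 and 22 and 27 over the 5. Several of these peaks passed the filter only through groups with more counts, so part of the rises there may come from this selection. L against H called 4 of 26 peaks, all higher with L (2.3% of all): the long Rsad2 body peak (log2 0.53, edgeR adjusted p = 3.37e-06), both starts (0.49 for Rsad2 and 0.42 for Cmpk2) and a peak over Rnf144a at chr12:26400908-26402042 (0.72). All 4 calls were lost without the dispersion trend, total-count scaling called 9, the count was 2 without either L library and 1 without the first H library, and the calls at the starts were lost without the first H or the second L library, that at the Cmpk2 start also without the first L library. At the end of Cmpk2, L and H differed by 0.04 (edgeR adjusted p = 0.961).

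When P was added to L, the long Rsad2 body peak was lower than with L alone. It held 89.5 and 74.9 CPM with PL, below both L libraries, a difference of -0.60 (SE 0.0891, edgeR adjusted p = 9.73e-07). In PL against L, 3 of 26 peaks were called lower and none higher (0.362% and 0.765% of all tested peaks): besides this peak, the Cmpk2 body peak at chr12:26476434-26478083 (-1.11) and the peak at chr12:26464299-26464776 (-1.59). The Rsad2 start differed by -0.35 and the Cmpk2 start by -0.28, neither called. The count was 1 without the dispersion trend (adjusted p = 0.0879 at the long Rsad2 body peak), 5 with total-count scaling, and 1 without the second L library or the first PL library.

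The triplet PLH lay below LH in the same way. The long Rsad2 body peak held 84.3 and 79 CPM with PLH against 131 and 131 CPM with LH (-0.68, SE 0.0886, edgeR adjusted p = 2.72e-08). The Cmpk2 end peak held 8.48 and 5.75 CPM against 16.2 and 18.4 CPM (-1.27, SE 0.202, edgeR adjusted p = 1.59e-05; 0.0508 without the second PLH library). In all 4 of 26 peaks were lower and none higher (0.203% and 0.343% of all tested peaks), with 2 called without the second PLH library and 2 without the dispersion trend, under which the long Rsad2 body peak had an edgeR adjusted p of 0.104. P added to H did not give a call at that peak: it held 77.8 and 76.2 CPM with PH (-0.17 against H, edgeR adjusted p = 0.289). PH against H called 1 peak higher and 1 lower (5.28% and 2.27% of all), and 1 in all on leaving out any of its libraries. Against P alone, PL raised 13 of 26 peaks (4.17% of all) and PH raised 12 (1.7% of all), and none fell. Peaks with few counts in P could hardly be called lower there, and part of the rises may come from the selection of such peaks by the filter. The rises at the long Rsad2 body peak were 1.32 and 1.22, at the Rsad2 start 0.66 and 0.64, at the Cmpk2 start 0.62 and 0.51, and at the Cmpk2 end 2.93 and 2.68. Those at the Cmpk2 start were not called without the first PL library, or without the second P or the second PH library, and that with PH was also lost without the dispersion trend (edgeR adjusted p = 0.122).

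With H added to L, the peak over the end of Cmpk2 was higher than with either alone. It held 16.2 and 18.4 CPM with LH, above both L and both H libraries (log2 1.07 over L, SE 0.197, edgeR adjusted p = 0.00243, and 1.11 over H, SE 0.201, edgeR adjusted p = 2.57e-05). The former was lost without the second L library, without the second LH library and without the dispersion trend. It was the only one of the 26 peaks called in LH against L (0.0645% of all tested peaks), and the long Rsad2 body peak differed there by 0.07 (95% interval -0.10 to 0.24). LH against H called 5 higher and none lower (2.65% of all higher; 3 without either H library or the first LH library), with the long Rsad2 body peak at 0.60 (edgeR adjusted p = 8.41e-08). PLH called no peak of the locus against PL or against PH, by edgeR or by DESeq2, where 0.000837% and 0.248% of all tested peaks were called and 4 and 2 of the 26 had an unadjusted p under 0.05.

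**Figure D5:**
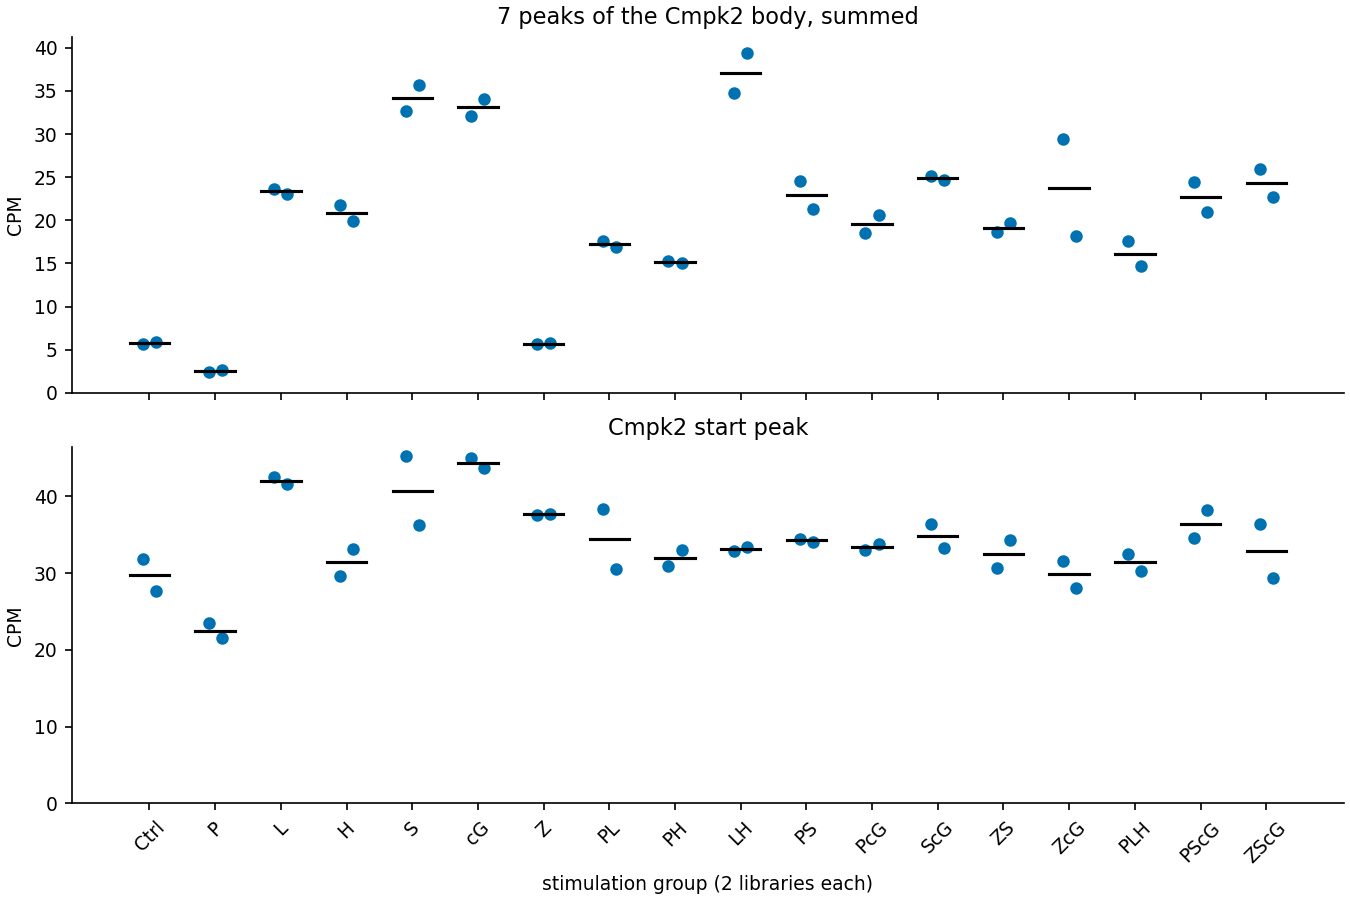
CPM summed over the 7 peaks of the Cmpk2 body (top) and CPM of the Cmpk2 start peak (bottom) in each library (points) with the group mean (line) for the 18 groups. The body sum is lowest in P, at 2.37 and 2.67 CPM, and highest in LH, at 34.7 and 39.4 CPM, while the start peak stays between 21.5 and 45.2 CPM.

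The body of Cmpk2, summed with the end peak that lies mostly past the gene, covered a wider range than its start. In LH the end peak held a mean of 17.3 CPM of a mean sum of 37.1 CPM. The 7 body peaks summed to 5.68 and 5.88 CPM in Ctrl, 2.37 and 2.67 CPM in P, 32.7 and 35.7 CPM in S, 32.1 and 34.1 CPM in cG, 25.1 and 24.7 CPM in ScG and 34.7 and 39.4 CPM in LH. P thus lay below Ctrl, and the Cmpk2 start peak was also lower in P than in Ctrl (log2 -0.40, SE 0.124, described without a test). With scaling by total counts the latter difference was only -0.073, and Ctrl belongs to the groups of high mitochondrial share. Past the gene, the 5 peaks summed to 3.71 and 1.93 CPM in Ctrl, 13.1 and 12.9 CPM in S, 19.2 and 18.2 CPM in cG and 9.86 and 10.4 CPM in ScG. There cG lay above S, whereas over the Cmpk2 body their libraries overlapped.

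The peak over Rnf144a at chr12:26400908-26402042 was an exception on its side of the locus. It held 2.08 and 2.8 CPM in Ctrl, 8.32 and 9.53 CPM with P, 15.4 and 18.2 CPM with PS, 15.2 and 17 CPM with PcG and 15.4 and 19.1 CPM with PScG. Both P libraries lay above both Ctrl libraries there, whereas the summed Cmpk2 body peaks lay lower with P than in Ctrl. It rose in PScG over P by 0.95 (edgeR adjusted p = 1.25e-05) and in ZScG over Z by 1.15 (edgeR adjusted p = 6.89e-05), and its departures from additivity were -0.81 on P and -1.64 on Z (edgeR adjusted p = 0.0334 and 0.000174).

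Other antiviral genes gave a setting for these values. Of 26 interferon-stimulated genes on the list, 19 could be placed, with 20 peaks at their starts. PScG over P raised 10 of these 20 peaks and lowered none, where 12.3% of all tested peaks rose. PS over P raised 10 (9.36% of all), PcG 14 (7.39%) and L 18 (5.19%). Against Z, ZS raised 9 of the 20 (6.63% of all), ZcG 5 (4.12%) and ZScG 7 (9.09%). ZS also lowered the peaks of Ifit2 (-0.60, edgeR adjusted p = 0.0428) and Eif2ak2 (-0.48, edgeR adjusted p = 0.0365), whereas ZcG and ZScG lowered none. The Rsad2 start, at 1.01 in PScG over P, lay beside Ifit1 (0.99), which encodes a sensor of foreign RNA caps, and 4 of the 20 list peaks had a larger value: those of Isg15 (1.33), a ubiquitin-like modifier, Cxcl10 (1.46), a chemokine, and Oasl1 (1.85), of the oligoadenylate synthetase-like family, and 1 of the 2 peaks of Oasl2 (1.61), of the same family. The departure from additivity on P was called below 0 at 9 of the 20 peaks and above 0 at none (2.66% and 1.38% of all tested peaks), with a median of -0.61 against -0.016 over all peaks. It was -1.68 at Oasl1, -1.14 at Cxcl10, -0.83 at Isg15, -0.81 at Ddx58, which encodes the RNA sensor RIG-I, and -0.61 at Ifit3, against -0.82 at the Rsad2 start and -0.48, not called, at the Cmpk2 start. On Z it was called below 0 at 3 of the 20 (0.946% of all), Oasl1 (-0.83), Cxcl10 (-0.58) and Isg20 (-0.51).

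Of 14 genes of the signalling pathway upstream, 13 could be placed. PScG over P raised 6 of their 13 peaks (12.3% of all tested peaks): Ifnb1, the interferon beta gene, by 1.39, the regulatory factors Irf1 (0.63), Irf8 (0.43) and Irf3 (0.39), the feedback inhibitor Socs1 (0.33) and the kinase gene Tbk1 (0.27). The departure on P was called below 0 at 1 of 13, Ifnb1 (-1.46, edgeR adjusted p = 0.032), and on Z at none by edgeR, where 2.66% and 0.946% of all tested peaks were called below 0. With 13 peaks, nothing is read from these counts.

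Over the 18 group means of log2 CPM, the peaks most like the Rsad2 start peak were those at Ifit3 (Pearson r = 0.95), over Ifit1bl1 and Ifit3b (0.941), and at Axl (0.907), Wdr7 (0.904) and A530032D15Rik (0.902), of 32110 peaks with a mean of at least 5 CPM. Only 1 peak per nearest gene was kept, and peaks within 1 Mb of the peak they were compared with were left out. The groups share ligands, and all peaks share library depth, so these values describe likeness only. Of the 5, 2 were again among the top 5 with a minimum of 1 CPM and 3 with Spearman's rho. Ifit3 at chr19:34582503-34583877 had a mean of 33.9 CPM. The peak most like the long Rsad2 body peak, chosen for comparison after its values were seen, was one of chr5:92344162-92349984 that overlaps Art3 and Cxcl10 (0.978), followed by one over Hk3 (0.97), one over Ifit1 and Ifit1bl1 (0.97), one next to Oasl1 (0.963) and one over Wdr7 (0.962). Of these 5, 2 were again among the top 5 with Spearman's rho, by which the peak over Ifit1 and Ifit1bl1 came first (0.969) and that over Art3 and Cxcl10 was the 5th (0.934).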

How the data were processed

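ATAC-seq was done on 36 libraries of stimulated bone marrow-derived dendritic cells, 2 per group. The authors deposited raw read counts per peak and library, whole numbers with no normalization, for 119751 peaks shared by all libraries, with a list of peak positions. The submitters' processing notes name Bowtie2 2.2.9, MACS2 (given with 1.4), bedtools, featureCounts and mm10, without roles or settings. Whether peaks were called on pooled libraries, how duplicate reads were treated and whether read ends were shifted for transposase binding are not given in the sources used here. If libraries were pooled, a peak's borders would reflect the most open groups.

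Groups were taken from the sample titles, and each count column was matched to the title of its sample. The mitochondrial peak was left out of library sizes and tests. Peaks were filtered with filterByExpr by group (minimum count 10), which left 119464. The quasi-likelihood method of edgeR 4.0.16 (R 4.3.3) was then used with TMM scaling (trended dispersion, robust) with 1 coefficient per group, 18 residual degrees of freedom and a common dispersion of 0.02. In each of 28 contrasts, Benjamini-Hochberg adjustment ran over all tested peaks, with a threshold of 0.05. CPM values are counts divided by the TMM-scaled library size. The fitting steps were tested on simulated data.

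Peaks overlapping the body or start of either gene are given in full or, where counts were few, by their counts, and others by range and number, with exceptions named. Genes of lists were placed at the 300-base promoters of RefSeq (GRCm38.p6), and genes with no entry were not analysed here. The members, the gene lists and the tests were chosen with earlier results of these data known. Replicate numbers did not pair the libraries: over 153 pairs of groups, the correlation of same-numbered libraries' deviations was -0.040 to 0.030. Replicates differed by more than counting noise (chi-square per degree of freedom 2.08 to 3.31). Alternatives were DESeq2 size factors and the DESeq2 1.42.0 Wald test, total-count scaling, no filter, the mitochondrial peak kept, a replicate block, only the groups of a contrast, no dispersion trend, and leaving out each library. Amplified reads carry no molecular identifiers here, so depth bounds counting error only.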

Additional observations from a re-analysis of the deposited data

Results flagged for a closer look

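The results below stand out because the effect of S or cG on the locus differed, by a test of the difference itself, between cells with and without the other. On P the departure from additivity was -2.06 at the long Rsad2 body peak, -1.79 at the Rsad2 body peak at chr12:26454524-26455330 and -0.82 at the Rsad2 start. Over Cmpk2 it was -2.85 at chr12:26475865-26476351, -3.33 at chr12:26476434-26478083, -4.2 at chr12:26478125-26478430, -4.0 at chr12:26478540-26479374 and -3.01 at the end peak. The P libraries held 3 and 3, 4 and 12, 0 and 3, and 2 and 0 counts in the first 4 of these, so the fitted values there rest on few counts. A low level in P also favours a departure below 0. On Z it was -0.84 at the long Rsad2 body peak, -3.41 at chr12:26478540-26479374, where the Z libraries held 1 and 2 counts, and -1.71 at the Cmpk2 end peak. The departures on P and on Z differed by -1.22 at the long Rsad2 body peak. The tests with Z libraries are not independent of the choice of the locus, since an interaction with them was known by then.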

How the results depend on the processing

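With 2 libraries a group, the spread rests on 18 degrees of freedom shared by all groups, and peaks with a few counts in P or Z give imprecise fold changes. Replicate numbers do not pair the libraries, and with a replicate block the count of called peaks moved by over 1.5 times in 1 contrast, PH against H (1, from 2). The departure from additivity on P kept its direction and its call at the long Rsad2 body peak, the Rsad2 start and the Cmpk2 end under every alternative run. The cause of the changes below was not tested.

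With scaling by total counts, the called peaks numbered 0 in ZScG against ZS, 5 in PS against ZS, 8 in PcG against ZcG, 7 in PScG against ZScG, 9 in L against H and 5 in PL against L. Under that scaling, ScG - S - cG + Ctrl was -3.74 at the long Rsad2 body peak, -1.64 at the Rsad2 start, -1.44 at the Cmpk2 start and -3.92 at the Cmpk2 end, and the departure on P at the Cmpk2 start was -0.62 and called. Signs turned there for PcG against ZcG (0.45), LH against L (-0.053) and PLH against PL (0.022) at the long Rsad2 body peak, for P against Ctrl at the Rsad2 start (0.11), and for ZS against Z (0.018) and ZcG against Ctrl (-0.050) at the Cmpk2 start. Without the dispersion trend, the counts were 0 in ZScG against ZS, 0 in ZScG against ZcG, 1 for the departure on Z, 0 for the difference of the departures, 1 in PS against ZS, 0 in PScG against ZScG, 0 in L against H, 1 in PL against L, 0 in LH against L and 2 in PLH against LH. The departure on Z was then -0.84 at the long Rsad2 body peak (edgeR adjusted p = 0.0765) and -1.70 at the Cmpk2 end (0.0502), and the difference of the departures -1.22 (0.496), none called. With only the groups of a contrast in the fit, 1 peak was called in PScG against PS, 1 in PScG against PcG, 0 in ZScG against ZS, 0 in ZScG against ZcG and 7 in L against H.

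Leaving out each library in turn, the other library of its group being assumed to vary like the other groups, gave 5 to 7 called peaks in ZS against Z, 0 to 1 in ZScG against ZS, 0 in each of 4 fits in ZScG against ZcG, 2 to 4 for the departure on Z, 1 to 2 in PS against ZS, 0 to 3 in PcG against ZcG, 0 to 1 in PScG against ZScG, 1 to 3 in L against H, 1 to 3 in PL against L, 1 in each of 4 fits in PH against H, 0 to 1 in LH against L, 3 to 4 in LH against H and 2 to 4 in PLH against LH. The departure on Z at the Cmpk2 end ranged from -2.24 to -1.25. Where differences near 0 changed sign on leaving out a library, they ranged at the long Rsad2 body peak from -0.013 to 0.19 in ZScG against ZcG, -0.070 to 0.014 in PcG against ZcG, -0.0091 to 0.19 in PScG against ZScG and -0.13 to 0.13 in PLH against PL, at the Rsad2 start from -0.071 to 0.20 in PScG against PS, and at the Cmpk2 end from -0.14 to 0.21 in L against H.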
